A study of Mus musculus with 8 samples.

Results

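The genes described here are 9 that mark cellular senescence or carry the p53 response: Trp53, Mdm2, Cdkn1a, Cdkn2a, Cdkn2b, Ccng1, Trp53inp1, Glb1 and Lmnb1. They were taken by symbol from the 25239 symbols of each count list, and all 9 were found and passed the filter on low counts, as 12977 genes did. RNA came from whole livers of 8 adult male mice whose Smo alleles are floxed (Smo tm2Amc /J, Smo fl/fl, on C57Bl6/J). Their age in weeks is not given in the sources used here, which state an age at vector injection only for a chow-fed cohort. The paper names adulthood, sex and background in its section on that cohort, where the Smo fl/fl mice are introduced, and does not repeat them for the diet cohort. All 8 were fed the CDA-HFD, a choline-deficient, amino acid-defined diet with 60% of its energy from fat that induces steatohepatitis, for 6 weeks. In the last week, 4 mice received AAV8-TBG-Luciferase (control, given as WT in the labels although their alleles are floxed too) and 4 received AAV8-TBG-Cre Recombinase (Smo-KO). The TBG promoter is active in hepatocytes, so other liver cells were not targeted. Smo transcripts left in a library may come from those cells, from hepatocytes without deletion or from another source, which cannot be told apart here. The lists held between 8203299 and 9999732 reads on genes.

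The transcription factor p53, encoded by Trp53, is held low by the ubiquitin ligase Mdm2, which is itself a p53 target. Damaged or stressed cells stabilize p53 protein, which then induces Cdkn1a and other targets, often with no rise in Trp53 mRNA. Senescent cells stop dividing under the cyclin-dependent kinase inhibitors p21, p16 and p15, from Cdkn1a, Cdkn2a and Cdkn2b, which keep the retinoblastoma protein active. They also lose lamin B1, the product of Lmnb1, and gain the lysosomal β-galactosidase encoded by Glb1. In fatty liver disease such hepatocytes accumulate, which is why these genes are read as markers.

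Promoter sequence from RefSeq (GRCm38.p6, 250 bases before and 50 after each annotated start) was found for 7 of the 9 genes, and the following stretches are shown because 2 of the genes hold a near match to the sequence that p53 is known to bind. The p53 response element, a 20-base consensus made of 2 copies of a 10-base motif that equals its own reverse complement, was searched without a spacer. Of 32851 promoters, 29 (0.0883%) hold a stretch at most 1 letter away from it. Cdkn1a and Ccng1 are among them, as is Rps27l, a p53 target from the companion list described further on. Capitals mark the 20 bases aligned to the consensus, each with 1 mismatch, which begin 51, 195 and 117 bases before the annotated start.
Cdkn1a, chr17:29090908-29090967, plus strand: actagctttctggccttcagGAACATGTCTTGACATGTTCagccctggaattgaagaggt
Ccng1, chr11:40755442-40755501, minus strand: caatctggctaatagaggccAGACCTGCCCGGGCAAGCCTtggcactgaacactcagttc
Rps27l, chr9:66946276-66946335, plus strand: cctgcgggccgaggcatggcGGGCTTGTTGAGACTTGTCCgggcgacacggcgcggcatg
The Cdkn1a element lies before the upstream of its annotated starts, and the nearest stretch in the window of a downstream start was 5 letters away. The nearest stretch in the promoter of Trp53 was 3 letters away, a distance that 6.29% of all promoters reach, and those of Mdm2, Cdkn2a, Cdkn2b and Glb1 were 5 or more letters away. This describes letters within these windows and not binding.

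Cdkn2a has 2 starts that lie 12427 bases apart on chromosome 4, minus strand, and the 60 bases before each are shown because both transcripts are counted under 1 symbol. The upstream start gives p19Arf, which inhibits Mdm2, and the downstream start gives p16Ink4a, which inhibits Cdk4 and Cdk6. The Cdkn2a values below are therefore sums of both.
Upstream start, chr4:89294620-89294679: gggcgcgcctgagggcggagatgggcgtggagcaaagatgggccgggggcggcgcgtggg
Downstream start, chr4:89282193-89282252: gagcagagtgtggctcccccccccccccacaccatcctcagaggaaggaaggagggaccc

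The targeted gene checked the labels. In the order of mouse numbers, which is used throughout, the 4 control livers had 8.17, 8.49, 8.74 and 8.21 CPM of Smo (CPM, the read count scaled to library size with TMM factors), and the 4 Smo-KO livers had 5.67, 3.93, 4.27 and 4.37 CPM. No Smo-KO liver reached the control range. The log2 fold change was -0.88 (95% confidence interval -1.22 to -0.53), and the p adjusted over all genes was 0.0957 by edgeR's quasi-likelihood test and 0.00646 by DESeq2's Wald test.

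Among the 9 genes, Lmnb1 alone differed between the groups without overlap, and it was lower in Smo-KO livers. Cdkn1a, Mdm2, Ccng1, Trp53 and Glb1 had Smo-KO means from 94.5% to 103% of the control means. No gene of the 9 passed the adjusted threshold of 0.05 by edgeR or by DESeq2, and 1 (Lmnb1, lower) had an unadjusted p under 0.05 by edgeR. Over all genes tested, 0% passed the adjusted threshold by edgeR and 1.29% by DESeq2, while 13.8% had an unadjusted p under 0.05 (6.7% in the direction of higher and 7.15% of lower levels). The groups did not overlap in 7.37% of all genes (3.03% higher, 4.34% lower), against 1 of the 9, a share of 11.1%, which is near that background. The median log2 fold change was -0.07 over the 9 genes (4 higher, 5 lower, with Glb1 among the higher at 0.0012 although its Smo-KO mean CPM was 99.9% of control; -0.01 without Smo-KO mouse 4 and -0.02 without control mouse 2) and -0.00084 over all genes tested. Whole liver sums over all its cells, so fewer cells of a type and less RNA per cell cannot be told apart.

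**Figure D1:**
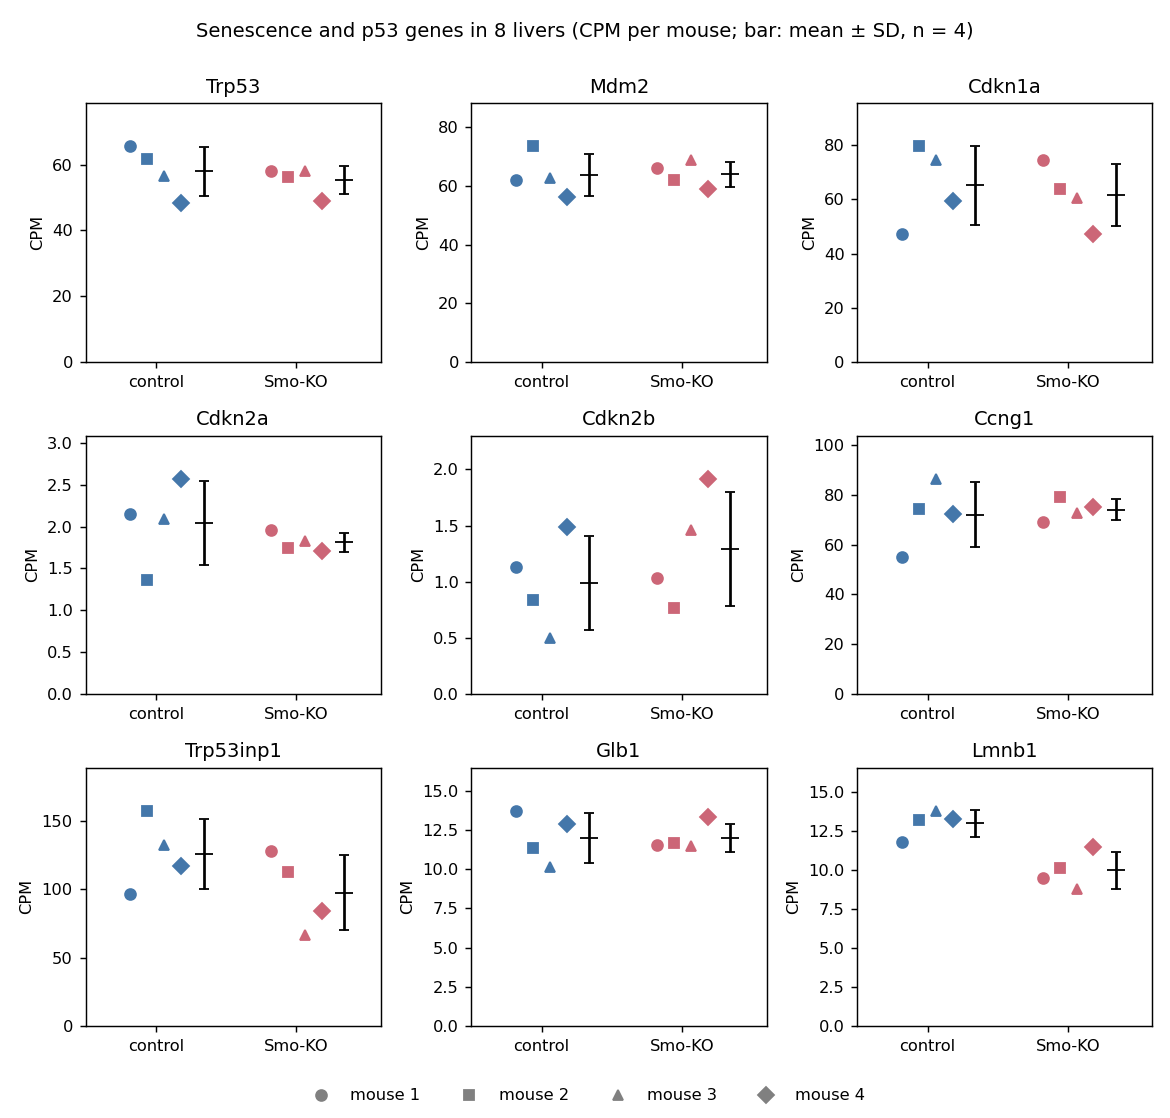
CPM (y axes, from 0) of the 9 genes in each of 4 control (blue) and 4 Smo-KO (red) livers, with 1 marker shape per mouse number and the mean ± SD as a black bar. The groups overlap in all panels except Lmnb1, where the Smo-KO livers lie between 8.78 and 11.5 CPM and the control livers between 11.8 and 13.8 CPM.

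The factor and its inhibitor came first. Trp53 was at 65.6, 61.8, 56.5 and 48.4 CPM in control livers and at 58.1, 56.2, 58.05 and 48.9 CPM in Smo-KO livers. All 4 Smo-KO values fell inside the control range, and mouse 4 was lowest in both groups. Means were 58.1 ± 7.44 and 55.3 ± 4.36 CPM (SD, n = 4 each), and the log2 fold change was -0.07 (95% interval -0.30 to 0.16, adjusted p 0.816 in edgeR's test). It was -0.14 without control mouse 4 and -0.0058 without control mouse 1. Mdm2 was 61.9, 73.4, 62.7 and 56.3 CPM in control and 66.2, 62.0, 68.7 and 58.8 CPM in Smo-KO mice. The Smo-KO values again lay within those of the controls. Its log2 fold change was 0.01 (-0.21 to 0.22, adjusted p 0.984), an interval of 0.866-fold to 1.17-fold, and it turned below 0 without control mouse 1 or 4 or Smo-KO mouse 1 or 3 (lowest -0.04).

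None of the 3 cyclin-dependent kinase inhibitors among the 9 genes passed the test, and the groups overlapped in each. Cdkn1a was at 47.3, 79.5, 74.5 and 59.2 CPM in control livers and at 74.6, 63.8, 60.6 and 47.1 CPM in Smo-KO livers. The lowest liver of each group was at 47.3 and 47.1 CPM, and the highest control was 1.68 times the lowest. With means of 65.1 ± 14.7 and 61.5 ± 11.3 CPM (SD, n = 4 each), the log2 fold change was -0.08 (-0.44 to 0.28, adjusted p 0.862 in edgeR's test). The sign turned without control mouse 2 (0.03) or without Smo-KO mouse 4 (0.03). Higher p21 mRNA by up to 1.21-fold lies within the interval.

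Cdkn2a and Cdkn2b had few reads, from 13 to 26 and from 5 to 18 per liver, against a detection floor of 3 reads (from 0.297 to 0.366 CPM). Cdkn2a was 2.15, 1.36, 2.09 and 2.57 CPM in control and 1.96, 1.75, 1.83 and 1.71 CPM in Smo-KO mice. The controls spanned a wider range that held all Smo-KO livers. The log2 fold change was -0.18 (-0.71 to 0.36, adjusted p 0.792 in edgeR's test), with -0.32 without control mouse 2 and -0.04 without control mouse 4. Cdkn2b, whose p15 protein is an inhibitor induced by TGF-β, was 1.13, 0.839, 0.497 and 1.48 CPM in control and 1.03, 0.763, 1.46 and 1.92 CPM in Smo-KO mice. The highest value belonged to Smo-KO mouse 4, and the groups overlapped. Its log2 fold change of 0.38 had the widest interval of the 9 (-0.46 to 1.22, adjusted p 0.704), and it was 0.12 without Smo-KO mouse 4 and 0.66 without control mouse 4.

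Neither of the remaining p53 targets passed the test. Ccng1, which encodes cyclin G1, a cofactor that helps to restrain p53, was 55.0, 74.4, 86.6 and 72.3 CPM in control and 69.1, 79.0, 72.7 and 75.3 CPM in Smo-KO mice. Control mouse 1 was lowest of all, and without it the log2 fold change of 0.04 (-0.23 to 0.30, adjusted p 0.922 in edgeR's test) became -0.07. Trp53inp1, whose product promotes p53 activity and autophagy, was 96.3, 157, 132 and 117 CPM in control and 128, 113, 66.3 and 83.8 CPM in Smo-KO mice. Smo-KO mice 3 and 4 lay below every control, while Smo-KO mice 1 and 2 lay inside the control range. Its means were 126 ± 25.7 and 97.6 ± 27.7 CPM (SD, n = 4 each), and the log2 fold change was -0.36 (-0.78 to 0.05, unadjusted p 0.078, adjusted p 0.415). Without Smo-KO mouse 3 it was -0.22 and without control mouse 2 it was -0.24, while without Smo-KO mouse 1 it was -0.52 (adjusted p 0.189).

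Glb1 and Lmnb1, the lysosomal and structural markers, were read last. Glb1 was 13.7, 11.3, 10.1 and 12.9 CPM in control and 11.5, 11.7, 11.5 and 13.3 CPM in Smo-KO mice. The group means were 12.01 and 12.002 CPM, with a log2 fold change of 0.0012 (-0.28 to 0.29, adjusted p 0.999 in edgeR's test), which turned below 0 without control mouse 2 or 3 or Smo-KO mouse 4 (lowest -0.07). Of its exon bases, 5.49% are shared with Tmppe on the same strand, where the counting may have set reads aside. Lmnb1 was 11.8, 13.2, 13.8 and 13.3 CPM in control and 9.48, 10.1, 8.78 and 11.5 CPM in Smo-KO mice. Each Smo-KO liver was below each control liver, by the smallest margin between Smo-KO mouse 4 and control mouse 1. Means were 13.0 ± 0.860 and 9.98 ± 1.16 CPM (SD, n = 4 each), which is 76.7% of the control level. The log2 fold change was -0.38 (-0.66 to -0.11, unadjusted p 0.0106), and the adjusted p of 0.239 in edgeR's test did not pass the threshold. Groups without overlap and lower in Smo-KO livers were found in 4.34% of all genes tested. Leaving out each mouse in turn kept the log2 fold change between -0.46 and -0.33.

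**Figure D2:**
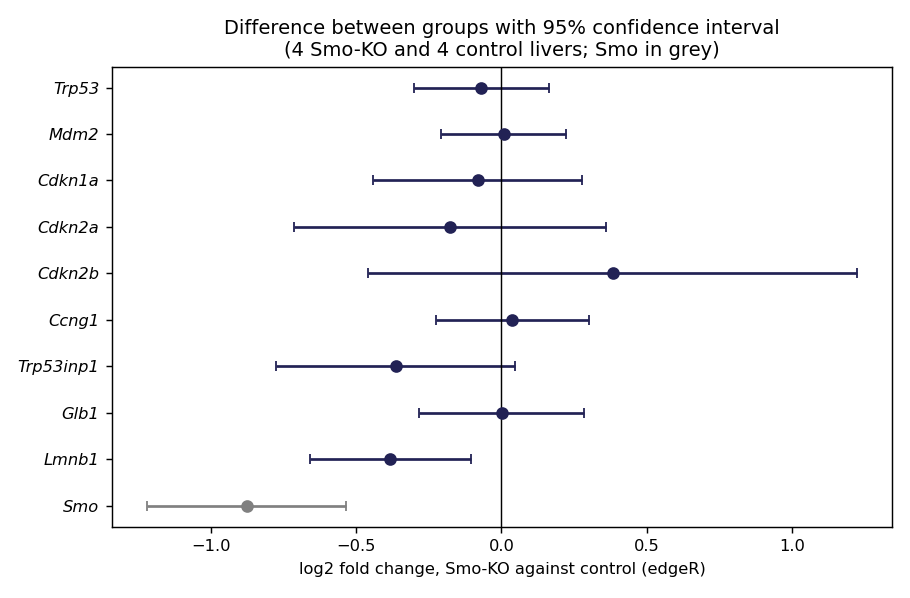
Log2 fold change (x axis, Smo-KO against control, edgeR) of the 9 genes and, in grey, of Smo, with 95% confidence intervals from 4 livers per group. The interval of Lmnb1 (-0.66 to -0.11) and that of Smo lie below 0, and the other 8 intervals include 0.

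The lowest and highest livers of each group varied by gene, which is described here and was not tested. Control mouse 1 was the lowest control in Cdkn1a, Ccng1, Trp53inp1 and Lmnb1 and the highest in Trp53 and Glb1. Smo-KO mouse 4 was the lowest Smo-KO liver in Trp53, Cdkn1a, Cdkn2a and Mdm2 and the highest in Cdkn2b, Glb1 and Lmnb1. The coefficient of variation among controls ran from 6.61% (Lmnb1) to 42.5% (Cdkn2b).

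Per kilobase of annotated exon, the 9 genes formed 3 tiers. Ccng1 had the highest level, 20.8 ± 2.56 CPM per kilobase (SD over 8 livers), followed by Cdkn1a (17.8), Trp53inp1 (17.3), Trp53 (14.0) and Mdm2 (12.5). Each of these overlapped with the next over the 8 livers. Glb1 (3.99) and Lmnb1 (3.88) overlapped each other and lay below Mdm2 in every liver. Cdkn2a (1.64) and Cdkn2b (0.821) were lowest and overlapped. With the longest transcript as the length, Cdkn1a came first at 30.5 CPM per kilobase, while the tiers were the same.

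The genes with the highest Pearson correlation of log2 CPM over the 8 livers were named by rule, as a description without a test. They were Dock5 (r = 0.973), Relb (0.964) and Cbl (0.958) for Cdkn1a, of which Cbl had few reads (mean 1.56 CPM, against 32.1 for Dock5 and 28.9 for Relb). They were Ptpn21 (0.979), Pkd1 (0.964) and Hivep1 (0.957) for Mdm2, and Tmcc3 (0.982), Cmas (0.978) and Tm9sf2 (0.977) for Ccng1. The lists shared no gene. Batches of library preparation and sequencing, which could add shared variation to these 8 points, are not given in the sources used here. A search over all genes tested will also return high values.

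Other p53 targets were read as a companion list and were not tested against the 9 genes. Of 48 on the companion list, 46 were tested, with 21 higher, 25 lower and a median log2 fold change of -0.03. None passed the adjusted threshold by edgeR, and 1 of the 46 did by DESeq2 (Ddit4), where 1.29% of all genes did. An unadjusted p under 0.05 was found for 4 (1 higher, 3 lower), which is 8.70% against 13.8% of all genes. That count was 2 without Smo-KO mouse 3, 8 without control mouse 4, 11 without Smo-KO mouse 1, 9 with no filter and 10 with the replicate number as a block. The most abundant, Ephx1, an epoxide hydrolase, was 860 ± 98.7 and 858 ± 48.7 CPM (SD, n = 4 each). Rps27l, a small ribosomal protein whose promoter element is shown above, was 211 ± 8.47 and 244 ± 36.5 CPM (log2 fold change 0.21, standard error 0.11, adjusted p 0.395). Ddit4, an inhibitor of mTORC1 that several stress pathways induce, was 25.05 ± 4.89 CPM in control and 8.999 ± 5.08 CPM in Smo-KO livers, without overlap. Its log2 fold change was -1.46 (p adjusted over all genes 0.116 by edgeR and 0.0387 by DESeq2). The groups did not overlap in 1 of the 46 genes, against 7.37% of all genes. Ddb2, a sensor of DNA damage, had a log2 fold change of 0.76 (adjusted p 0.197), and Epha2, a receptor tyrosine kinase, of -0.57 (adjusted p 0.297). Of the 29 genes with a promoter element at most 1 letter from the consensus, 9 were tested, of which 4 were higher, 5 were lower and 0 had an unadjusted p under 0.05 or passed the adjusted threshold by edgeR. Their median log2 fold change was -0.05.

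Upstream of p53, the list of regulators and DNA damage sensors had 31 genes tested of 33 (16 higher, 15 lower, median 0.03). None passed the adjusted threshold by edgeR or DESeq2, and 5 had an unadjusted p under 0.05 in edgeR's test (2 higher, 3 lower), 16.1% against 13.8% of all genes. That count was 8 without Smo-KO mouse 1 and 3 without Smo-KO mouse 3 or 4. H2ax, the histone whose phosphorylated form marks DNA breaks, was 37.5 ± 4.16 and 29.5 ± 1.13 CPM (SD, n = 4 each), without overlap (log2 fold change -0.34, adjusted p 0.183). The groups did not overlap in 1 of the 31 genes, against 7.37% of all genes. Daxx, a chromatin factor that binds Mdm2, had a log2 fold change of -0.37, and Sirt1, a deacetylase of p53, of 0.40. The ribosomal proteins Rpl5 and Rpl11, which can bind Mdm2, had 0.19 and 0.14. In the axis of cyclin-dependent kinases and retinoblastoma proteins, 24 of 24 were tested (13 higher, 11 lower, median 0.02) and 3 had an unadjusted p under 0.05 (12.5% against 13.8% of all genes), with 0 past the adjusted threshold in either test. These were Cdk2 (log2 fold change 0.33), the D-type cyclin Ccnd3 (-0.23), whose groups did not overlap, and Cbx7, a Polycomb protein that represses Cdkn2a (0.43). E2f4 (-0.19) and Cdkn1b (0.10), named after their values were seen, had no overlap either, which makes 3 of 24 against 7.37% of all genes. Ccnd1 was 202 ± 21.9 and 186 ± 49.4 CPM, and Cdk4, the kinase that p16 inhibits, was 78.8 ± 5.53 and 79.3 ± 6.52 CPM.

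**Figure D3:**
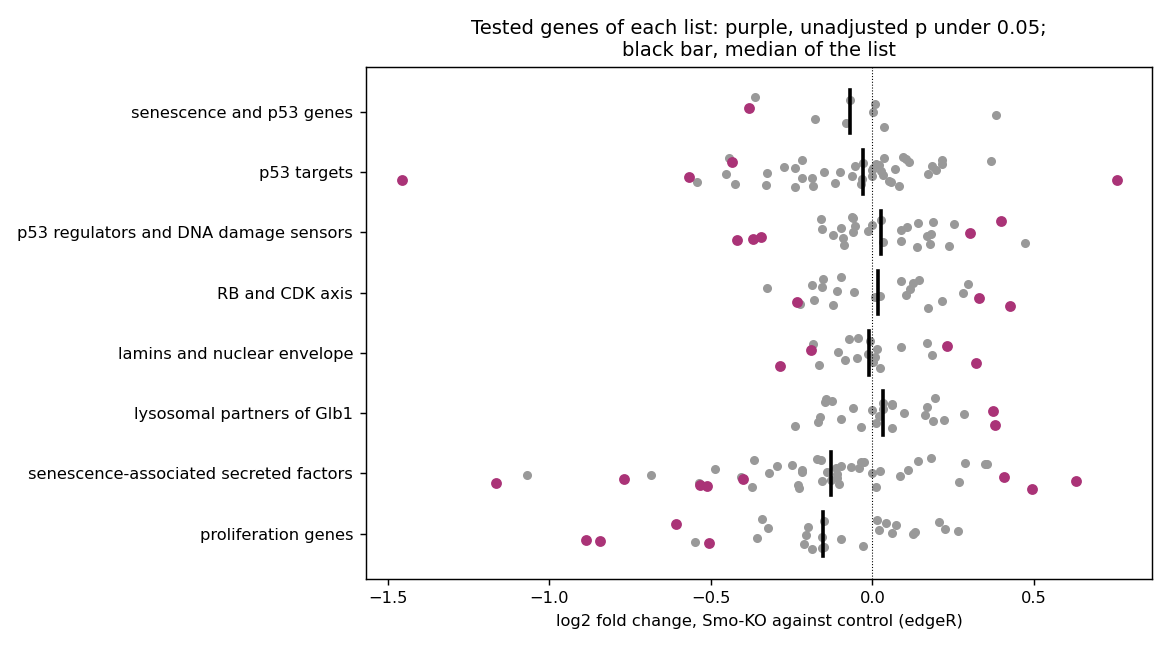
Log2 fold change (x axis, Smo-KO against control, edgeR) of every tested gene of the 9 and of 7 companion lists (y axis), with the median of each list as a black bar and genes with an unadjusted p under 0.05 in purple. Medians lie between -0.15 and 0.03, and purple points appear on both sides of 0 in most lists.

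Neighbours of Lmnb1 and Glb1 by role were read next. Of 22 lamin and nuclear envelope genes, 20 were tested (9 higher, 11 lower, median -0.01), with 4 at an unadjusted p under 0.05 (20% against 13.8% of all genes, and 1 gene without Smo-KO mouse 2, 3 or 4) and 0 past the adjusted threshold by edgeR or DESeq2. Lmna, which encodes the A-type lamins, was 223 ± 17.1 and 221 ± 14.97 CPM (SD, n = 4 each). Emd, encoding emerin of the inner nuclear membrane, was lower without overlap (log2 fold change -0.29, adjusted p 0.285). So was Macroh2a1 (-0.19), while Sun1 was higher without overlap (0.09), both named after their values were seen, which makes 3 of 20 against 7.37% of all genes. Hmgb1, a chromatin protein that senescent cells can release, had a log2 fold change of 0.32 and Sun2, a nuclear envelope protein, of 0.23. Of 27 lysosomal genes, 26 were tested (16 higher, 10 lower, median 0.03), with 0 at the adjusted threshold in either test. At an unadjusted p under 0.05 there were 2 (7.69% against 13.8% of all genes), but 5 without Smo-KO mouse 1 and 4 with the replicate number as a block. The 2 were Idua (0.37) and Galc (0.38), lysosomal hydrolases of iduronic acid and galactosylceramide, the latter without overlap. Hexa and Manba, named after their values were seen, were also higher without overlap (unadjusted p 0.0536 and 0.0866), which makes 3 of 26 against 7.37% of all genes in either direction and 3.03% in the higher one. Gaa, the acid α-glucosidase, had a log2 fold change of -0.24. Psap, the precursor of the saposins, was 1370 ± 77.4 and 1237 ± 58.3 CPM, and Lamp1, a lysosomal membrane protein, 1118 ± 5.04 and 1117 ± 60.1 CPM.

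No secreted factor tied to senescence, on a list that includes some of their receptors, passed the adjusted threshold. Of 55 genes, 47 had enough reads, and Il6, Ccl8, Ccl20, Mmp3, Csf2, Inha, Fgf2 and Cxcr2 did not. Among the 47, 34 had a log2 fold change below 0 and 13 above, with a median of -0.13 (from -0.18 to -0.07 without each mouse in turn), where 6507 of 12977 genes overall were lower. By edgeR and by DESeq2, 0 passed the adjusted threshold. In edgeR's test 8 had an unadjusted p under 0.05 (3 higher, 5 lower, 17.0% against 13.8% of all genes). That count was 4 without Smo-KO mouse 2, 5 without control mouse 2 and 10 without control mouse 1 or 4. Cxcl10, an interferon-induced chemokine, was 48.8 ± 20.2 and 21.8 ± 8.33 CPM (SD, n = 4 each; log2 fold change -1.17, adjusted p 0.146), and Ccl5, a chemokine of T and NK cells, had a log2 fold change of -0.54. Angptl4, a lipoprotein lipase inhibitor, had 0.49. Igfbp2 and Igfbp4, which bind insulin-like growth factors, had 0.41 and 0.09. T and NK cell markers, given next, were lower in the same livers, and their part in the values of this list was not tested.

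Lmnb1 is also a gene of dividing cells and is abundant in lymphocytes, so markers of both are given beside it. Of 28 proliferation genes, all tested, 18 were lower (median log2 fold change -0.15, and -0.05 without control mouse 3), with 4 lower and 0 higher at an unadjusted p under 0.05, 14.3% against 13.8% of all genes in either direction and 7.15% in the lower one. The count at an unadjusted p under 0.05 was 7 without control mouse 2 or Smo-KO mouse 1 and 2 without control mouse 3. None of the 28 passed the adjusted threshold in edgeR's test, and 1 (Ccnb2) did in DESeq2's, where 1.29% of all genes did. Ccnb2, a mitotic cyclin, had a log2 fold change of -0.84, Cdc20 of -0.89 and Plk1 of -0.61, whereas the replication genes Mcm6 and Mcm7 had 0.02 and 0.22. The summed level of the 28 was 422, 397, 505 and 511 CPM in control and 372, 423, 480 and 485 CPM in Smo-KO mice, so the sums overlapped. The 5 T cell markers in the files were all lower, each with an unadjusted p under 0.05 (13.8% of all genes were at that level in either direction and 7.15% in the lower one). None of the 5 passed the adjusted threshold by edgeR. By DESeq2, where 1.29% of all genes passed, Cd8a and Cd3e (the latter named after its values were seen) did. Their sum was 33.7, 30.5, 31.0 and 40.3 CPM in control and 15.8, 14.2, 23.9 and 24.3 CPM in Smo-KO mice, without overlap, with Cd8a the most abundant (9.87 and 5.80 CPM on average). Of 5 NK cell markers, 2 had enough reads and both were lower, each with an unadjusted p under 0.05, against the 13.8% and 7.15% above. Nkg7 passed the adjusted threshold by DESeq2, where 1.29% of all genes did, and neither passed by edgeR. The NK sum averaged 17.7 ± 3.30 and 9.58 ± 2.86 CPM (SD, n = 4 each), most of it Nkg7. These sums overlapped, with control mouse 3 at 12.9 CPM and Smo-KO mouse 3 at 13.0 CPM. The 7 sinusoidal endothelial markers, with Clec4g the most abundant, were all lower. Of these, 2 had an unadjusted p under 0.05, 28.6% against 13.8% of all genes in either direction and 7.15% in the lower one. Their sums were 211, 202, 245 and 242 CPM in control and 250, 113, 154 and 208 CPM in Smo-KO mice. The part of these markers in the Lmnb1 difference was not tested.

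The summed markers of other cells overlapped between groups. Single markers did not overlap in 1 of 8 of the hepatocyte list and 1 of 8 of the macrophage list, and in 0 of the stellate, cholangiocyte, B cell and neutrophil lists, against 7.37% of all genes. These were Cps1, named after its values were seen, which encodes a hepatocyte enzyme of the urea cycle (919 ± 50.6 and 733 ± 94.0 CPM, lower, adjusted p 0.218 by edgeR), and Lyz2, a macrophage lysozyme (412 ± 37.9 and 513 ± 48.8 CPM, higher, adjusted p 0.219; SD, n = 4 each). Hepatocyte markers summed to 30014 ± 2614 and 29838 ± 630 CPM (SD, n = 4 each), led by Alb at 16570 and 15338 CPM. Sums were 1250 ± 119 and 1334 ± 134 CPM for macrophage markers (led by Lyz2), 857 ± 49.0 and 814 ± 120 CPM for stellate markers (Dcn) and 27.3 ± 4.65 and 29.5 ± 5.47 CPM for cholangiocyte markers (Sox9). B cell markers summed to 8.77 ± 0.952 and 8.97 ± 1.78 CPM (Cd79b). Neutrophil markers summed to 22.5 ± 5.64 and 23.9 ± 3.11 CPM (Csf3r), with the defining marker Ly6g at 0 reads in every liver.

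**Figure D4:**
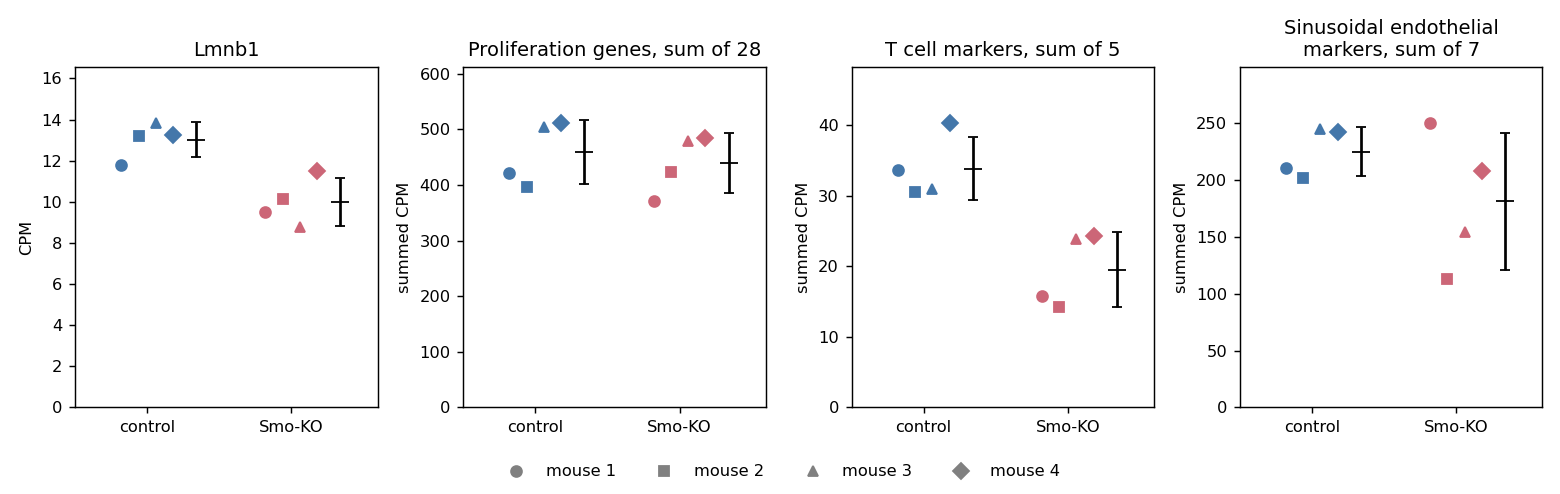
CPM of Lmnb1 and summed CPM of proliferation, T cell and sinusoidal endothelial marker lists (y axes, from 0) in each control (blue) and Smo-KO (red) liver, with the mean ± SD as a black bar. Lmnb1 and the T cell sum do not overlap between groups, while the proliferation and endothelial sums do.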

How the data were processed

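The authors deposited 1 list of whole-number read counts per liver, without normalization. Submitters' notes name fastp, STAR 2.7.5, featureCounts 2.0.1 and GRCm38, although the lists end with 5 summary entries in the form that htseq-count writes. Annotation and strand setting are not given in the sources used here. Those entries (reads on no gene, 8.33% in control and 9.23% in Smo-KO livers; on several genes, 2.55% and 2.51%) were left out. Counts were analysed with edgeR 4.0.16 in R 4.3.3 (filterByExpr, TMM, glmQLFit, glmQLFTest, no covariate, p-values adjusted by the method of Benjamini and Hochberg across 12977 genes). Standard errors and 95% intervals are those implied by its F statistic. DESeq2 1.42.0 was an alternative. Log2 CPM used a prior count of 2. Molecular identifiers are not given, so floors cover counting error only. No liver pair of 1 group was a copy (chi-square from 7.76 to 17.5 per degree of freedom). The 4 samples of a group are separate mice, and p-values measure the spread between them.

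The 9 genes and companion lists were written with earlier results of these data known. Most named genes follow a rule: the 9, Smo, per list the 2 most abundant and 3 of smallest p, the most abundant cell marker, and 3 most similar genes each for Cdkn1a, Mdm2 and Ccng1. The exceptions are those said to be named after their values were seen, Tmppe, which overlaps Glb1, and Ly6g, at 0 in every liver. Genes with too few reads or not found were also named outside the rule. H2afx, H2afy and H2afz were matched by RefSeq synonyms, while Tnfrsf10a and Trac were not found. Exon lengths are from GENCODE M21 (GRCm38). The procedure was tested on simulated counts of this comparison (3 runs, median 12885 genes tested): it recovered 90.1% of genes changed 2-fold and 99.4% of those changed 4-fold, with 5.57% false calls. Those counts were drawn from the kind of model that the fit assumes, with dispersions estimated from these livers. In the real livers Smo, at a log2 fold change of -0.88, had an adjusted p of 0.0957 in edgeR's test. Changes as small as those of the 9 genes were not simulated, so these shares give no power for them. Figures used matplotlib 3.10.9.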

Additional observations from a re-analysis of the deposited data

Results flagged for a closer look

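In 42 groups of 4 livers (the 9 genes, Smo, 10 summed marker lists and reads on genes, in each group), 4 held a liver set apart from its group, and about 2.1 would by chance (1 group in 20). Glb1 in Smo-KO mouse 4 stood at 13.3 CPM, while the other Smo-KO livers had 11.5 to 11.7 CPM. The summed macrophage markers of Smo-KO mouse 1 were 1530 CPM, against 1240 to 1290 CPM. The summed B cell markers of control mouse 2 were 7.34 CPM, against 9.19 to 9.30 CPM. Smo-KO mouse 3 had 8203299 reads on genes, against 9367795 to 9543675, and the groups did not differ in that total by an exact two-sided permutation test (p = 0.257, n = 4 each). No explanation was tested for any of them.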

How the results depend on the processing

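No gene of the 9 passed the adjusted threshold of 0.05 in any of the 14 alternative fits (lowest 0.189, for Trp53inp1 without Smo-KO mouse 1), and Lmnb1, Trp53inp1, Trp53, Cdkn2a and Cdkn2b kept their direction in each fit that tested them. Cdkn2b could not be fitted with at least 10 counts in every liver. No scaling moved the median of all genes by over 0.1 on the log2 scale. Glb1 turned to -0.0032 with plain library size. Without each mouse in turn, log2 fold changes ran from -0.143 to -0.00578 for Trp53, -0.324 to -0.0393 for Cdkn2a, 0.123 to 0.663 for Cdkn2b, -0.515 to -0.22 for Trp53inp1, -0.207 to 0.0302 for Cdkn1a, -0.0422 to 0.0867 for Mdm2, -0.0717 to 0.141 for Ccng1, -0.0689 to 0.0697 for Glb1 and -0.997 to -0.811 for Smo. Smo passed the adjusted threshold with DESeq2's test (-0.87), with no filter (-0.88) and without Smo-KO mouse 1 (-0.997). With no filter, 2 of the 9 had an unadjusted p under 0.05, the second being Trp53inp1, and without 1 mouse it was from 1 to 2. Genes with an adjusted p under 0.05 numbered 0, but 167 with DESeq2, 61 with no filter and from 0 to 78 without 1 mouse (78 without Smo-KO mouse 1, 5 without control mouse 1, 4 without Smo-KO mouse 3). Genes at an unadjusted p under 0.05 without 1 mouse numbered from 2 to 11 for p53 targets (9 with no filter), 3 to 8 for p53 regulators, 1 to 4 for lamins, 2 to 5 for lysosomal genes, 4 to 10 for secreted factors and 2 to 7 for proliferation genes. List medians ran from -0.0875 to -0.014 for the 9 genes, -0.017 to 0.0353 for the RB and CDK axis, -0.0593 to 0.0202 for lamins and 0.0167 to 0.0593 for lysosomal genes, -0.0595 to 0.0125 for p53 targets (above 0 without Smo-KO mouse 2), 0.00222 to 0.0715 for p53 regulators, -0.177 to -0.069 for secreted factors and -0.235 to -0.0486 for proliferation genes. The cause of these shifts was not tested. At this depth Cdkn2a and Cdkn2b rest on at most 26 reads a liver.

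Replicate numbers are shared by the groups and were not taken to pair the livers, although the values do not settle whether they do: same-numbered livers had correlations of their deviations from the group means from 0.06 to 0.19, over 0.1 in 3 of 4 pairs, and 5 of 8 livers correlated best with their own number. Between livers of different numbers these correlations ran from -0.21 to 0.16. With the number as a block, 8 genes had an adjusted p under 0.05, and 10 p53 targets and 4 lysosomal genes had an unadjusted p under 0.05. It called none of the 9 genes.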

Other observations

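Of the 254 genes whose promoter holds a stretch at most 2 letters from the p53 consensus, 91 were tested, with 43 higher and 48 lower in Smo-KO livers and a median log2 fold change of -0.03. None passed the adjusted threshold of 0.05 by edgeR. An unadjusted p under 0.05 was found for 7 higher and 10 lower genes, 18.7% of the 91, against 13.8% of all genes tested. Such stretches are in 0.798% of the 32851 promoters.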
